A study of Homo sapiens with 20 samples.

Results

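Transcripts of 10 genes of stratified epithelium were followed through RNA libraries of HEK293, an established line from human embryonic kidney: the keratins KRT1, KRT10, KRT5, KRT14, KRT6A, KRT6B, KRT16 and KRT17, and the desmosome genes DSG1 and PKP1. They were taken by gene symbol out of 62266 genes in the deposited tables. The list was drawn up because most of these transcripts had been seen to be higher in exosomes than in RNA granules, so every value that sets exosomes beside granules for them is a description and carries no test. Total RNA was sequenced from exosomes, small vesicles released by cells, and from RNA granules, membraneless bodies of RNA and protein in the cytoplasm, of which the labels say that the cores were isolated. The design text names the comparison of both compartments in normal and Huntington conditions as its aim. The 4 groups of 5 libraries were exosomes of HD-induced cells (HD exosomes), exosomes of control cells, granules of HD-induced cells (HD granules) and granules of control cells. All came from the same cell line, and the 5 libraries of a group are described as biological replicates. The sources used here do not give how the Huntington state was induced or what the control cells carried.

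Keratins are the intermediate filament proteins of epithelia, and a filament needs a type I and a type II partner. Basal cells of the epidermis make KRT5 with KRT14, the differentiating layers above them make KRT1 with KRT10, and KRT6A, KRT6B, KRT16 and KRT17 belong to hair follicles, glands and wounded or inflamed skin. DSG1 is a cadherin of desmosomes, the junctions that hold such cells together, and PKP1 is a plaque protein inside them. Simple epithelia, which include kidney tubules, use KRT8 and KRT18 instead.

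Levels are given in RPM, estimated reads scaled to a total of 1000000 reads on named transcripts, meaning the entries of the tables that carry a gene symbol. Named reads numbered 1.33 to 7.41 M in HD exosomes 1, 2, 3 and 5 (M, 1000000 reads), 5.30 to 9.04 M in control exosomes, 17.7 to 23.9 M in HD granules and 11.4 to 24.5 M in control granules. HD exosome 4 held 713 named reads, so that 1 read there stands for 1403 RPM. The main tests include it unless stated otherwise, and several summaries are also given without it. In HD exosome 2, 86.6% of all reads lay on entries without a symbol, and in the other exosome libraries 29.3% to 46.3%. Of 8 genes that mark the HEK293 line, such as LIN28B and IGF2BP1, 7 or 8 had reads in every control exosome library and in every granule library, and 8, 6, 4, 1 and 7 had reads in HD exosomes 1 to 5. Such counts also depend on depth. Summed, the 8 genes had 846, 609, 857 and 939 RPM in HD exosomes 1, 2, 3 and 5. In control exosomes their sum was 842 to 913. In bulk RNA of this kind, fewer particles or cells that carry a transcript and less of it in each cannot be told apart.

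Some of these genes resemble each other closely enough for short reads to fit more than one of them, and the sequences show which. KRT14, KRT16 and KRT17 lie within the same cluster on chromosome 17, at chr17:41582279-41586895, chr17:41609778-41612767 and chr17:41619442-41624575 of build GRCh38.p14, all on the minus strand. The 90 coding bases below surround the longest run that these 3 mRNAs share, 53 bases, and capitals mark the 9 positions at which they are not all alike. They start at coding base 334 of KRT14, 340 of KRT16 and 241 of KRT17, counted from the first base of the start codon, in GENCODE release 29.
KRT14: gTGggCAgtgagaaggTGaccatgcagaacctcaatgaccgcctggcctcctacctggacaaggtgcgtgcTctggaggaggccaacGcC
KRT16: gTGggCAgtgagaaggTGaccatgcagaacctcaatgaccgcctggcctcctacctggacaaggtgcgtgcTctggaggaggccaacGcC
KRT17: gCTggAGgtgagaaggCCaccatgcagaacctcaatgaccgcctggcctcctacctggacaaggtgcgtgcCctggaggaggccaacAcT
KRT14 and KRT16 are identical over this stretch, and their longest common run was 158 bases. A read length of 100 bases is stated in the labels, and 4.47% of the 100-base windows of the KRT14 coding sequence occur in KRT16, against 0% in KRT17. The KRT6 genes, which neighbour each other on chromosome 12, resemble each other more. KRT6A, at chr12:52487176-52493257, shared 13.7% of its windows with KRT6B, at chr12:52446651-52452146, and 23.3% with KRT6C, which is not on the list. All 3 have 1 common run of 269 bases, of which 90 bases, from coding base 148, are shown because a read from them names no single gene.
KRT6A, KRT6B and KRT6C: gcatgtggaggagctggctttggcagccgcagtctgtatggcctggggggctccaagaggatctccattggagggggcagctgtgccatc
The split of reads between KRT6A, KRT6B and KRT6C, and to a smaller extent between KRT14 and KRT16, is therefore an estimate of the quantification program. Pseudogenes took few reads: each pseudogene of KRT16 or KRT17 held at most 3.04 reads in any library. All 138 keratin pseudogenes summed to 0 to 26.4 RPM in HD exosomes and 8.97 to 34.2 in control exosomes, against 7.39 to 27.4 in HD granules and 10.2 to 18.9 in control granules, led by KRT8P36, KRT8P46 and KRT18P61, copies of the simple keratins.

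Among the suprabasal pair, KRT1, at chr12:52674736-52680407, had the highest mean of the list per length in control exosomes, while its partner KRT10 stayed near the granule level. KRT1 had 9.59, 94.8, 96.4, 1403 and 319 RPM in HD exosomes 1 to 5, against 3.98, 2.69, 22.2, 28.3 and 56.8 in control exosomes 1 to 5. The value of HD exosome 4 rests on 1 read and has an exact 95% Poisson interval of 35.5 to 7815, while that of HD exosome 5 rests on 958 reads with an interval of 299 to 340. HD exosomes 3 and 5 lay above every control exosome library, and HD exosome 1 lay among the controls. HD exosome 2, where most reads were unnamed, lay above the controls in RPM but not on a scale that counts unnamed reads: per 1000000 of all reads its KRT1 was 12.7, against 16.7 and 34.96 in control exosomes 4 and 5, and in deposited TPM it was 1.53, against 2.05, 4.31 and 6.40 in control exosomes 3 to 5. The same held for most of the other genes: of KRT1, KRT5, KRT6A, KRT6B, KRT16, DSG1 and PKP1, HD exosome 2 exceeded all controls for 7 of 7 in RPM, for 2, KRT6A and KRT6B, per all reads, and for 0 in TPM, while HD exosomes 3 and 5 did so for 7 of 7 on each scale. Granules held 0.282, 0.816, 0, 1.63 and 1.52 RPM of KRT1 in HD cells and 0.352, 0.782, 0, 0.122 and 0.212 in control cells. Every exosome library stood above every granule library of its own state. In control cells the mean was 22.8 ± 22.1 in exosomes and 0.294 ± 0.302 in granules (SD, n = 5 each).

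KRT10, at chr17:40818117-40822614, did not share this pattern. It had 1.61, 0, 0, 0 and 44.4 RPM in HD exosomes 1 to 5, against 4.94, 0.933, 2.69, 0 and 0.676 in control exosomes. HD granules held 5.82, 2.24, 1.53, 1.37 and 0.926, and control granules 0, 0.264, 0.872, 1.53 and 1.802. Apart from HD exosome 5, the exosome values of KRT10 lay inside the range of the granules. A count of 0 reads allows up to 1.54 RPM in HD exosome 2 and 2.26 in HD exosome 3, taking 3 reads as the limit, so a level like that of most granule libraries was not detectable there. Intervals and limits of this kind cover counting error only.

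The basal pair divided in the same way. KRT5, at chr12:52514575-52520394, had 5.00, 52.1, 90.7, 0 and 341 RPM in HD exosomes 1 to 5, against 1.11, 1.03, 12.04, 17.5 and 23.5 in control exosomes. HD exosomes 3 and 5 were again above all controls, and HD exosome 1 was among them. HD exosome 2 was above them in RPM alone, with 7.01 per 1000000 of all reads against 10.3 and 14.5 in control exosomes 4 and 5. All granule libraries held KRT5 at 0.753 or less, with means of 0.377 ± 0.281 in HD granules and 0.0792 ± 0.0309 in control granules (SD, n = 5 each). KRT14, the partner of KRT5 in basal cells, was listed at 0 reads in all 5 HD exosome libraries, and it had 0.885, 1.34, 0, 0 and 0 RPM in control exosomes 1 to 5. It had reads in every granule library, between 0.0446 and 0.788 in HD granules and between 0.0816 and 0.528 in control granules. HD exosomes thus stood below HD granules for KRT14, but 0 reads in HD exosomes 1, 2, 3 and 5 allow up to 0.405, 1.54, 2.26 and 0.999 RPM, so a level as in most granule libraries would not have been detectable. KRT10, KRT14 and KRT17 thus do not follow the pattern for which the list was drawn up, and the 10 genes are called keratin and desmosome genes here.

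**Figure D1:**
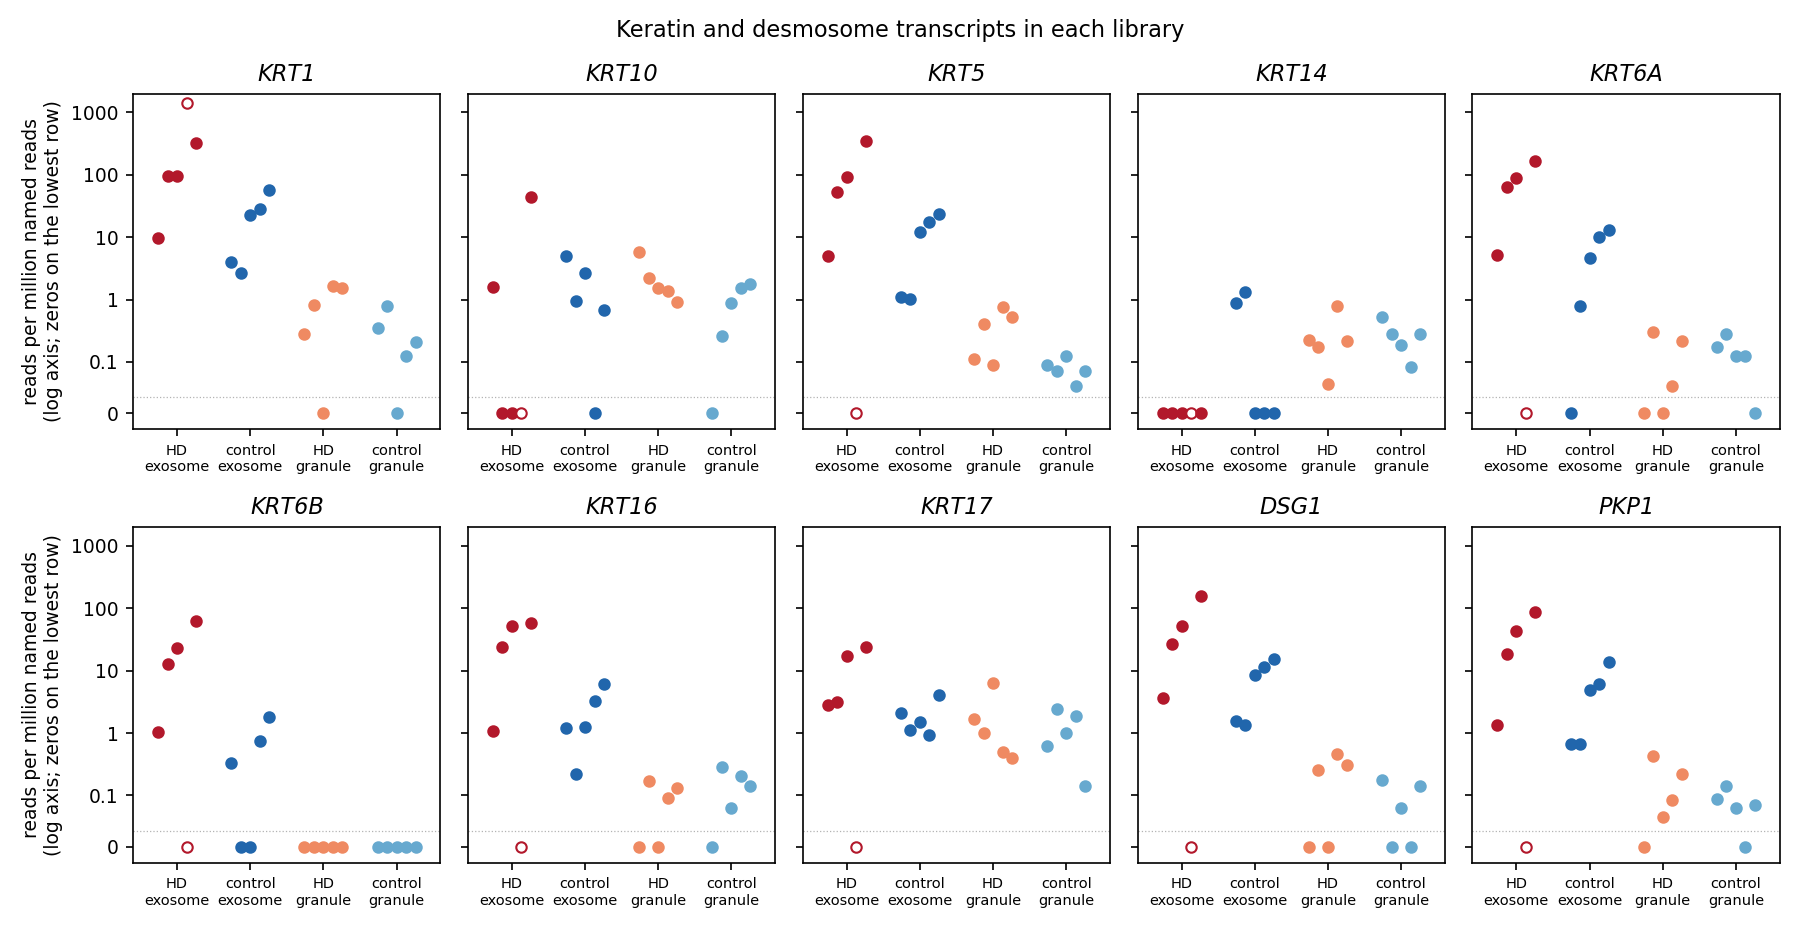
Each panel shows 1 gene, with 1 point per library in the order of replicate numbers, as RPM on a log axis with zeros on the lowest row; the open symbol is HD exosome 4, with 713 named reads. KRT1, KRT5, KRT6A, KRT16, DSG1 and PKP1 reach 58.4 to 341 in HD exosome 5, while KRT10, KRT14 and KRT17 do not separate the compartments.

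The tables also hold 669597 entries without a symbol, and the 3 that ran most closely with the keratins are described here. They were found after the values had been seen, by ranking 5398 unnamed entries on how closely their log2 level followed the summed level of the 10 genes over the 9 exosome libraries other than HD exosome 4. All 3 had a Pearson r of 0.98. Stopping at 3 was a choice, since the entries ranked 4 to 10 had r between 0.90 and 0.94. Of those, the entry ranked 9, of 2461 nucleotides, had 516 reads in exosomes and 0 in granules, and the others had 1489 to 11014 granule reads. The first of the 3, 2162 nucleotides long, had 22.0, 99.4, 117, 0 and 433 RPM in HD exosomes 1 to 5, against 13.9, 14.7, 38.7, 53.9 and 67.01 in control exosomes. Granules held 0 to 12.1 of it in HD cells and 2.58 to 6.93 in control cells. The single granule library in which it was at 0, HD granule 1, was the granule library with the highest KRT10 level, 5.82. The main KRT10 transcript in the tables is 2163 nucleotides long.

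The third entry, 1655 nucleotides long, had 5.54, 49.4, 117, 0 and 290 RPM in HD exosomes 1 to 5, and 0, 0, 15.7, 15.7 and 19.95 in control exosomes. It was at 0 in all 10 granule libraries. The 2 control exosome libraries that lacked it, 1 and 2, were the 2 exosome libraries in which KRT14 had reads. The main KRT14 transcript in the tables is 1636 nucleotides long. The second entry, of 398 nucleotides, reached 16.7 RPM in HD exosome 5 and was at 0 in 9 of 10 granule libraries. The tables give these entries no gene, and their sequences were not used here, so whether reads of KRT10 or KRT14 were assigned to them was not tested. The levels of KRT10 and KRT14 above are those of the named transcripts alone.

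**Figure D2:**
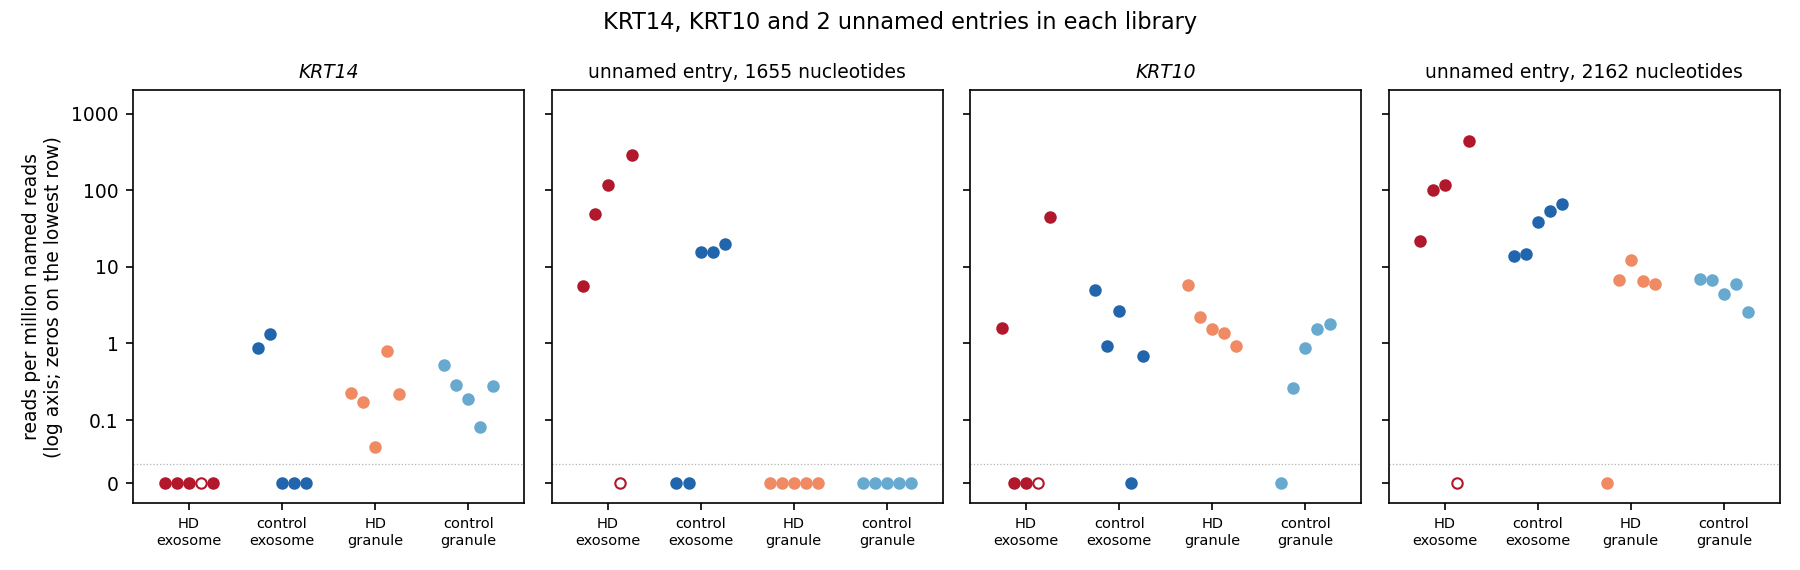
RPM per library, on a log axis with zeros on the lowest row, of KRT14 and KRT10 and of 2 entries without a symbol; the open symbol is HD exosome 4. The entry of 1655 nucleotides is at 0 in every granule library and in the 2 control exosome libraries where KRT14 had reads.

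The keratins of wounded skin and skin appendages came next. KRT6A had 5.15, 62.7, 88.7, 0 and 165 RPM in HD exosomes 1 to 5, against 0, 0.784, 4.68, 10.1 and 13.0 in control exosomes. In granules its highest value was 0.301. KRT16, its type I partner, had 1.08, 24.2, 51.98, 0 and 58.4 RPM in HD exosomes 1 to 5, against 1.22, 0.224, 1.24, 3.31 and 6.18 in control exosomes, and at most 0.284 in granules. For both genes HD exosomes 3 and 5 exceeded all controls, HD exosome 1 did not, and HD exosome 2 did so in RPM but not in TPM, where KRT6A was 1.18 against 1.70 in control exosome 5 and KRT16 0.560 against 0.980. KRT6B had 1.03, 12.7, 23.3, 0 and 63.1 RPM in HD exosomes 1 to 5, against 0.332, 0, 0, 0.740 and 1.81 in control exosomes. No granule library held a read of KRT6B, which allows up to 0.122 to 0.264 RPM depending on depth. Since KRT6A, KRT6B and KRT6C share coding sequence, how their reads divide is less certain than their sum.

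KRT17, also a keratin of appendages and wounds, varied without separating the groups. Its level was 2.84, 3.09, 17.3, 0 and 24.0 RPM in HD exosomes 1 to 5, against 2.10, 1.12, 1.53, 0.943 and 4.09 in control exosomes. In granules it was 1.69, 0.988, 6.29, 0.502 and 0.391 in HD cells and 0.616, 2.42, 1.00, 1.88 and 0.141 in control cells. HD granule 3 held more KRT17, with 141 reads, than any control exosome library. Only HD exosomes 3 and 5 exceeded both all control exosomes and all granules.

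The desmosome genes went with KRT1 and KRT5. DSG1, at chr18:31318160-31359246, had 3.65, 26.8, 51.98, 0 and 157 RPM in HD exosomes 1 to 5, against 1.55, 1.34, 8.48, 11.5 and 15.4 in control exosomes. It did not pass 0.460 in any granule library. PKP1, at chr1:201283506-201332989, had 1.35, 18.5, 43.7, 0 and 86.9 RPM in HD exosomes 1 to 5, against 0.664, 0.672, 4.92, 6.04 and 13.7 in control exosomes. Its highest granule value was 0.429. For both genes control exosomes 1 and 2 were the lowest exosome libraries with reads, HD exosome 1 stood next, and HD exosomes 3 and 5 exceeded every control. HD exosome 2 exceeded them in RPM but stood below control exosomes 3 to 5 per 1000000 of all reads, at 3.5998 against 4.56 to 9.49 for DSG1 and 2.49 against 2.64 to 8.42 for PKP1.

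Set side by side, control exosomes stood above control granules without overlap for KRT1, KRT5, DSG1 and PKP1, which is 4 of 10 genes; 32.5% of 14777 genes tested there were called higher in exosomes and 30% higher in granules, and 9.81% of 38048 genes with a read there, or 23.4% of those tested, stood above without overlap in the same way. Without HD exosome 4, HD exosomes stood above HD granules for KRT1, KRT5, KRT6A, KRT6B, KRT16, DSG1 and PKP1, 7 of 10 genes, where 5.92% of 14431 genes were called higher in exosomes and 11.4% higher in granules in the fit with HD exosome 4. In the same 4 against 5 libraries 3.39% of 37305 genes with a read, or 7.45% of 16171 genes tested, stood above without overlap. With HD exosome 4 only KRT1 remained above and KRT14 below. The sum of the 10 genes was 690 RPM in HD exosomes, or 512 ± 529 without replicate 4 (SD, n = 4), and 59.7 ± 50.9 in control exosomes, 6.42 ± 1.60 in HD granules and 3.18 ± 1.04 in control granules (SD, n = 5 each). As these genes were chosen on this contrast, nothing further is read from it.

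Levels of different genes can be compared only per length, for which the deposited TPM values were used (transcripts per 1000000, which correct for length and count unnamed entries in the total). In control exosomes, KRT1 led with a mean of 2.84 ± 2.48 TPM, followed by KRT5 with 1.67 ± 1.53, KRT6A with 0.876 ± 0.769 and KRT17 with 0.504 ± 0.326 (SD, n = 5). DSG1 with 0.459 ± 0.352, PKP1 with 0.378 ± 0.374, KRT16 with 0.372 ± 0.380 and KRT10 with 0.216 ± 0.222 TPM came after them, and KRT6B and KRT14 were last at 0.0769 ± 0.102 and 0.0692 ± 0.102. Each gap between neighbours in this order was smaller than the larger of their SDs, though the gaps of KRT5 to KRT6A, KRT6A to KRT17 and KRT10 to KRT6B exceeded the smaller one. In HD exosomes 1, 2, 3 and 5, KRT5 averaged 25.3 ± 39.0 TPM, KRT1 19.8 ± 28.7, KRT6A 13.6 ± 16.998 and KRT16 7.51 ± 8.31 (SD, n = 4), with spreads that again exceeded the gaps.

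Within a library the TPM ratios of DSG1 and KRT5 to KRT1 varied less than the levels, which did not hold for every gene. Across the 9 exosome libraries other than HD exosome 4, KRT1 ranged 119-fold, between 2.69 and 319 RPM. The TPM ratio of DSG1 to KRT1 stayed between 0.139 and 0.248, a 1.78-fold range. The ratio of KRT5 to KRT1 ranged 2.97-fold, between 0.451 and 1.34, and exceeded 1 only in HD exosomes 3 and 5. PKP1 to KRT1 ranged 9.35-fold and KRT16 to KRT1 11.1-fold, while KRT17 to KRT1 ranged 44.1-fold. KRT6A to KRT1 and KRT10 to KRT1 reached 0 in at least 1 library, with highest ratios of 1.04 and 0.508, as did KRT6B to KRT6A, at most 0.391, and KRT14 to KRT5, at most 1.48. TPM also depends on which transcripts of a gene the reads are assigned to. PKP1 had 6 reads each in control exosomes 1 and 2, against 36 and 24 of KRT1, at ratios of 0.0308 and 0.124. KRT17 had 21 reads against 71 of KRT1 in HD exosome 1, at a ratio of 1.29. These ranges hold for TPM, and ratios of reads may order the genes differently. As a description over these 9 libraries, the log2 level of KRT1, KRT5, KRT6A, KRT6B, KRT16, DSG1 and PKP1 followed the sum of the other members with a Pearson r of 0.92 to 0.99. For KRT17 r was 0.82, for KRT10 0.22 and for KRT14 -0.72. The points share library depth and the read assignment described above, so these coefficients carry no p.

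**Figure D3:**
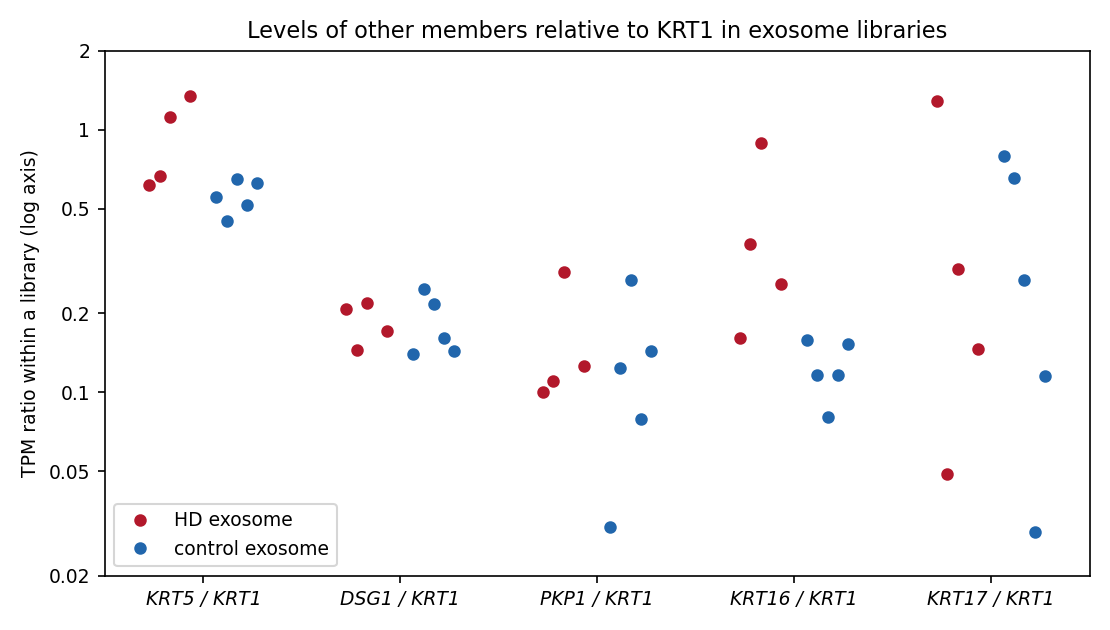
Ratio of the TPM of each gene to that of KRT1 within each exosome library, on a log axis, for HD exosomes 1, 2, 3 and 5 and for control exosomes 1 to 5. DSG1 stays between 0.139 and 0.248 of KRT1 in all 9 libraries, while KRT17 spans 44.1-fold.

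The summed level of the 10 genes was lowest where depth was greatest, though not in step with it. In HD exosomes the sum was 31.3 RPM at 7.41 M named reads in replicate 1, 295 at 1.94 M in replicate 2, 464 at 1.33 M in replicate 3 and 1259 at 3.00 M in replicate 5. In control exosomes it was 16.8 at 9.04 M in replicate 1, 10.1 at 8.93 M in replicate 2, 57.8 at 5.90 M in replicate 3, 78.5 at 5.30 M in replicate 4 and 135 at 6.35 M in replicate 5. The deepest library of the HD group and the 2 deepest of the control group were the lowest of their groups, and HD exosome 1 lay below control exosomes 3, 4 and 5. HD exosomes were also the shallower group, so depth moved with the HD comparison. Per 1000000 of all reads the sum of HD exosome 2 was 39.6, below the 46.3 and 83.2 of control exosomes 4 and 5. The part of depth in that comparison was not tested.

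**Figure D4:**
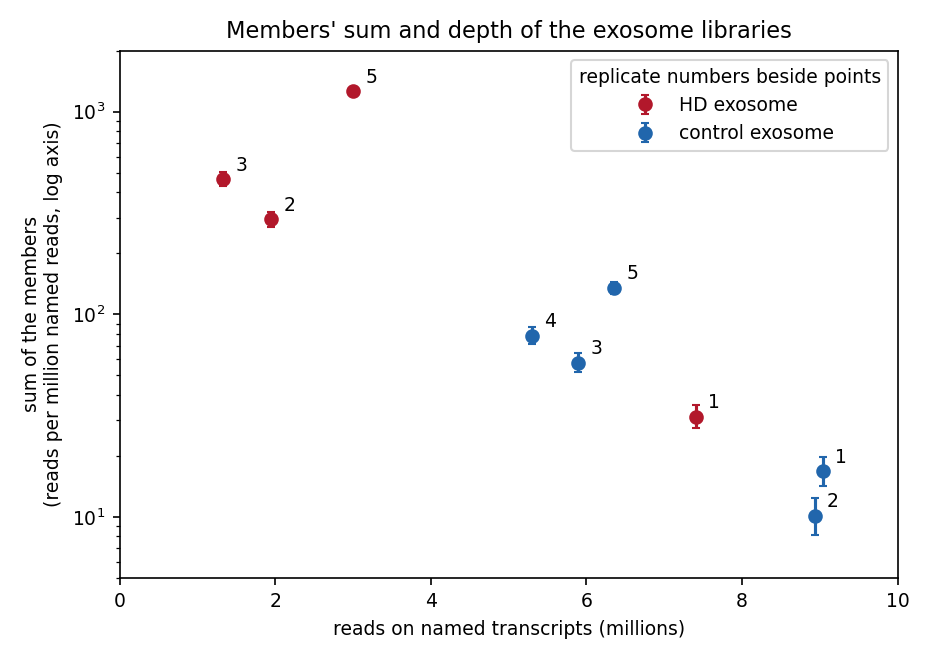
Summed level of the 10 genes, in RPM on a log axis, against the named reads (M) of 9 exosome libraries; numbers are replicates, bars are exact 95% Poisson intervals, and HD exosome 4 is left out. The 3 libraries above 7 M named reads hold 10.1 to 31.3, and the 3 below 4 M, all of HD cells, hold 295 to 1259.

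Between HD and control exosomes every member that could be tested had a positive fold change and none passed the test. The genes were chosen for high levels in exosomes, with earlier results of these libraries known, so the shared direction is a description. Of the 10, 7 passed the filter on low counts, and KRT6B, KRT10 and KRT14 did not. The filter asked for enough reads in at least 5 libraries, whichever group they came from. With HD exosome 4 nearly empty, a member present in HD exosomes alone could enter only with a read there. KRT6B did not enter, at 12.7, 23.3 and 63.1 RPM in HD exosomes 2, 3 and 5 and at most 1.81 in control exosomes. The log2 fold change in HD exosomes over control exosomes was 2.56 ± 1.03 for KRT1, 3.48 ± 1.19 for KRT5, 3.88 ± 1.15 for KRT6A and 3.84 ± 0.97 for KRT16 (estimate ± SE). It was 2.56 ± 0.63 for KRT17, 2.99 ± 0.98 for DSG1 and 2.88 ± 1.07 for PKP1. With edgeR's quasi-likelihood test and Benjamini-Hochberg adjustment the adjusted p was 0.598 for each of them, and unadjusted p ranged between 0.00099 for KRT17 and 0.034 for KRT1. None of 12936 genes tested was called (0%), 980 had an unadjusted p under 0.05, and DESeq2 called 3, none of them a member. Under DESeq2 the median log2 fold change of all genes moved to 1.08, against -0.03 in the main fit, and the members lay between 2.45 and 3.72.

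The calls changed with the setting. Without HD exosome 4, 1 of 13374 genes was called, and it was not a member. The members' fold changes were then 2.55 to 3.89, with an adjusted p of 0.584 for each in edgeR's test. Without HD exosome 1, the library with the lowest sum in its group, 487 of 13088 genes were called, 74 higher and 413 lower in HD exosomes, and among the higher were KRT16 at 4.28 (adjusted p = 0.014), KRT17 at 2.91 (adjusted p = 0.021) and DSG1 at 3.42 (adjusted p = 0.049) in edgeR's test. With a replicate block 296 of 12936 genes were called in edgeR's test, 45 higher and 251 lower in HD exosomes. Among the higher were PKP1 (adjusted p = 0.00037), DSG1 (adjusted p = 0.0014) and KRT6A (adjusted p = 0.032). The block rests on replicate numbers, which did not pair all libraries, as given further below. With no filter on low counts 275 of 33343 genes were called, 141 higher and 134 lower, with KRT17 (adjusted p = 0.0074, edgeR) among the higher. Adjusted p over all alternatives ranged between 0.014 and 0.974 for KRT16, 0.0074 and 0.974 for KRT17, 0.0014 and 0.974 for DSG1, 0.00037 and 0.974 for PKP1, and 0.032 and 0.974 for KRT6A. In HD exosomes 3 and 5 KRT16, KRT17 and DSG1 exceeded every control value on each scale. Without HD exosomes 4 and 5, an alternative chosen after the data were seen, the fold changes of the 7 members were 1.69 to 3.48 and no gene was called.

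**Figure D5:**
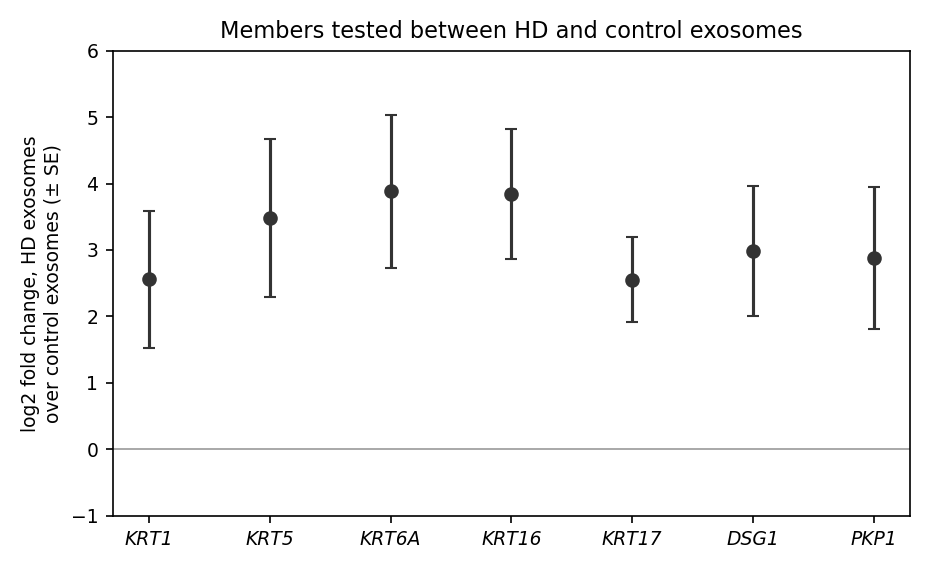
Log2 fold change in HD exosomes over control exosomes for the 7 tested genes, with bars of 1 SE from edgeR's quasi-likelihood fit over 5 against 5 libraries. All estimates lie between 2.56 and 3.88, and each has an adjusted p of 0.598.

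In granules, KRT10 and KRT17 were the members with enough reads for a test. KRT10 averaged 2.38 ± 1.98 RPM in HD granules and 0.894 ± 0.779 in control granules (SD, n = 5 each), a log2 fold change of 1.39 ± 0.80 (SE). KRT17 averaged 1.97 ± 2.47 in HD granules and 1.21 ± 0.927 in control granules, a log2 fold change of 0.66 ± 0.80, which became -0.33 without HD granule 3. Neither passed edgeR's test (adjusted p = 1.00 for both), and their groups overlapped. None of 16750 genes was called (0%), 214 had an unadjusted p under 0.05, and DESeq2 called 19.

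Other genes of the epidermis were then read out of the same fits, from lists of textbook genes. Of 45 genes of the cornified envelope and upper epidermis, 27, 27, 29, 0 and 39 had reads in HD exosomes 1 to 5 and 15, 21, 32, 32 and 34 in control exosomes, against 15 to 25 in HD granules and 16 to 21 in control granules. Apart from FLG2, the genes of this list with the highest exosome means were DMKN, FABP5, a fatty acid carrier, and ELOVL4, an elongase of very long fatty acids, and these were as high in granules. DMKN had 55.5 to 84.6 RPM in HD exosomes 1, 2, 3 and 5 and 60.0 to 81.5 in control exosomes, against 49.1 to 135 in HD granules and 61.3 to 115 in control granules. In control cells FABP5 and ELOVL4 were lower in exosomes than in granules in edgeR's test, FABP5 by -1.06 ± 0.28 on the log2 scale (adjusted p = 0.0062) and ELOVL4 by -0.65 ± 0.14 (adjusted p = 0.0019). FLG2, a filaggrin-like protein of the cornified layer, had 2.70, 11.8, 16.6, 0 and 119 RPM in HD exosomes 1 to 5, against 0.443, 0.896, 7.80, 5.85 and 9.60 in control exosomes. It was higher in HD exosomes than in HD granules, where it reached at most 0.879, by 6.34 ± 1.09 on the log2 scale (adjusted p = 0.0044, edgeR).

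Without HD exosome 4, HD exosomes stood above HD granules without overlap for 11 of these 45 genes, among them the envelope precursor SPRR2D, the antimicrobial S100A7 and the protease CASP14, and control exosomes above control granules for FLG2 and LYPD3. The share of all genes that did so was 3.39% of those with a read in HD cells, where 42 of the 45 had one, and 9.81% in control cells. S100A7 had 0.540, 5.15, 6.78, 0 and 6.99 RPM in HD exosomes 1 to 5 and 0, 0, 0, 0.377 and 1.10 in control exosomes, was at 0 in all HD granules, and reached 0.0408 in 1 control granule library. Few of the list could be tested: 6 in HD cells, of which FLG2 was called higher in exosomes, and 5 in control cells, of which CNFN, ELOVL4 and FABP5 were called lower. The median log2 fold change of the tested genes was 0.01 in HD cells and -0.65 in control cells, against -0.15 and 0.02 over all genes tested. The fit of HD cells asked for enough reads in at least 5 libraries and included HD exosome 4. Genes present in exosomes alone could hardly enter, so 0.01 holds for the 6 that did. Without HD exosome 4, 13 genes of the list were tested. Of these 13, 6 stood above all HD granules without overlap, against 7.45% of all genes tested. The filter then asked for enough reads in only 4 libraries, as many as the HD exosomes that were left. Genes present in exosomes alone could enter, and such genes tend to stand above the granules. Nothing is therefore read from the 6 of 13. In HD cells 17.3% of all genes tested were called, 854 higher and 1648 lower in exosomes (577 and 2459 with RLE size factors), and 62.4% in control cells.

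Among genes of basal epidermis and the hemidesmosome, the integrin ITGB4 and the cell cycle checkpoint protein SFN were called higher in exosomes in both states, and LAMA3 lower in both. SFN had 5.27, 15.4, 26.4, 0 and 44.3 RPM in HD exosomes 1 to 5, against 5.97, 5.04, 5.94, 6.60 and 10.2 in control exosomes, and 4.73 at most in granules. Its log2 fold change, exosomes over granules, was 3.06 ± 0.54 in HD cells (adjusted p = 0.0047, edgeR) and 2.01 ± 0.41 in control cells (adjusted p = 0.0012). TP63, the transcription factor of basal epidermis, had 0.270, 3.605, 2.26, 0 and 15.98 RPM in HD exosomes 1 to 5 and 0 to 1.89 in control exosomes, against 0.0446 to 0.169 in HD granules and 0 to 0.141 in control granules. Of 13 genes, 8 were tested in each state: 2 called higher and 1 lower in HD cells, 2 higher and 4 lower in control cells. Over all genes tested, 5.92% were called higher and 11.4% lower in exosomes in HD cells, and 32.5% and 30% in control cells. The counts in control cells are small beside such shares and are not read as a trait of this list.

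Other genes of desmosomes and adherens junctions were read the same way. DSP, which ties desmosomes to intermediate filaments, had 479 to 635 RPM in HD exosomes 1, 2, 3 and 5 and 357 to 572 in control exosomes. JUP, the plaque protein plakoglobin, had 75.7 to 294 in those HD exosomes and 183 to 494 in control exosomes. JUP was higher in exosomes than in granules by 2.32 ± 0.59 on the log2 scale in HD cells (adjusted p = 0.018, edgeR) and 3.77 ± 0.33 in control cells (adjusted p = 1.9e-06), and PKP4 by 1.63 ± 0.33 and 2.05 ± 0.14. Of 10 tested genes of the 14 on this list, 2 were called higher and 1 lower in HD cells, and 4 higher and 4 lower in control cells. The shares over all genes tested were 5.92% higher and 11.4% lower in HD cells, and 32.5% and 30% in control cells. The counts in control cells are again not read as a trait of the list. DSG2, the desmoglein of simple epithelia, was lower in control exosomes than in control granules by 1.29 on the log2 scale, the opposite side from DSG1. In HD cells the JUP call was lost without HD exosome 1 or 3, and that of DSC2, the 1 called lower, under 7 of 16 alternatives. In control cells the DSP call was lost under 3 of 14, each without 1 granule library.

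The simple keratins KRT8 and KRT18 were called higher in exosomes than in granules in control cells (1.43 ± 0.26, adjusted p = 0.00048, and 2.21 ± 0.10, adjusted p = 2.2e-08, edgeR), and neither was called in HD cells. Their exosome levels did not follow those of the members: KRT8 had 366, 145, 300 and 144 RPM in HD exosomes 1, 2, 3 and 5, where the sum of the members was 31.3, 295, 464 and 1259. HD exosome 4, with 0 reads of KRT8 and 1 read of the members, held too few reads to compare them. In control exosomes KRT8 was 342, 341, 356, 372 and 301. Among other epidermal and mucosal keratins KRT2, of the upper epidermis, had 93.0 RPM in HD exosome 5, 0 in HD exosomes 1 to 4 and 0.448 to 7.55 in control exosomes. KRT6C reached 15.4 in HD exosomes and 2.34 in control exosomes, within the limit set by its shared sequence. KRT80 reached 12.7 in HD exosomes and 3.31 in control exosomes, and KRT75 reached 7.53 and 3.05 there but 8.52 in HD granules.

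Among markers of other cell types, blood cell genes also peaked in HD exosome 5, while in control exosomes their sum did not follow that of the members. The sum of 14 blood cell genes was 96.3, 526, 345, 0 and 2276 RPM in HD exosomes 1 to 5 and 82.2, 136, 301, 177 and 82.7 in control exosomes, against 12.6 to 91.2 in HD granules and 14.9 to 49.3 in control granules. HBA2, HBG1, HBG2 and HBA1 made up most of it in HD exosome 5, with 821, 635, 375 and 305 RPM, though reads of HBA1 and HBA2, and of HBG1 and HBG2, are hard to tell apart. In control cells 6 of 8 tested blood genes were called higher in exosomes, including ALAS2, the first enzyme of haem synthesis in red cell precursors, by 8.32 ± 0.60 on the log2 scale (adjusted p = 4.5e-07, edgeR), and in HD cells 3 of 7, HBG1, HBG2 and HBB. HBB was not called there without HD exosome 5, nor HBG2 under the replicate block. Over all genes tested, 32.5% were called higher in exosomes in control cells and 5.92% in HD cells. Of the genes that mark the HEK293 line, 6 were tested in each state. Of these 6, 4 were called higher in exosomes in control cells, IGF2BP1, INA, LIN28B and NEFL, and 2 in HD cells, INA and LIN28B.

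The fibroblast collagen COL1A2 showed a similar split between compartments: it had 3.65, 7.72, 22.6, 0 and 21.6 RPM in HD exosomes and 3.93 to 8.49 in control exosomes, against at most 0.172 in HD granules and 0.176 in control granules. It was called in control cells, at 6.71 ± 0.64 (adjusted p = 3.3e-06, edgeR). COL1A1 was called there too, at 1.75 ± 0.41 (adjusted p = 0.0028, edgeR), and PDGFRA was not. Thus 2 of 3 tested genes of this list were called higher, against 32.5% of all genes tested there. In HD cells 0 of 3 were called, COL1A1 being at 1.53 ± 0.66 (adjusted p = 0.12, edgeR), and COL1A2 was not tested. The 9 fibroblast and endothelial genes summed to 0 to 131 RPM in HD exosomes and 19.4 to 44.2 in control exosomes, against 5.80 to 48.7 in HD granules and 4.65 to 15.5 in control granules. The 5 melanocyte genes summed to 0 to 26.6 in HD exosomes and 1.11 to 5.00 in control exosomes, against 2.82 to 4.83 in HD granules and 2.29 to 4.89 in control granules, and the 14 gland genes stayed at or below 3.87 in every library. Control exosomes 1 and 5 had nearly the same blood sum, 82.2 and 82.7, at member sums of 16.8 and 135. The part of these cell types in the levels of the members was not tested.

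The 8 genes whose level ran most closely with the summed members, among 12375 ranked over the 9 exosome libraries, were DSC1, CALML5, FLG2, TRIM29, LGALS7B, ARGLU1, ACER3 and SFN, with Pearson r between 0.94 and 0.97. DSC1, the desmosomal cadherin of the upper epidermis, came first, with 1.22, 11.3, 29.4, 0 and 34.1 RPM in HD exosomes 1 to 5 and 0.221, 0.448, 1.36, 3.02 and 5.82 in control exosomes. It did not exceed 0.314 in granules. CALML5, a calmodulin-like protein of the epidermis, and LGALS7B, a galectin with a near-identical copy, reached 24.6 and 27.4 in HD exosome 5 and at most 0.123 and 0.217 in granules. ARGLU1 and ACER3 differ in kind: they ranged over 23.7 to 40.6 and 29.9 to 70.6 in the 9 exosome libraries and reached 101 and 50.4 in granules. Leaving out 1 library kept 1 to 6 of the 8 genes, 1 of them without control exosome 2, and DSC1 itself ranked first in 7 of these 9 rankings, second without HD exosome 2 and 4th without control exosome 2.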

How the data were processed

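Total RNA of 20 libraries in 4 groups of 5 was read in pairs of 100 bases on stranded libraries, per the labels' protocols. Per the submitters' processing notes the authors used Trimmomatic, cutadapt, FastQC and Salmon with build GRCh38.p14; the sources used here do not name versions or an annotation release. The deposited tables hold expected counts (estimated reads) and TPM for 251955 named transcripts and 669597 unnamed entries. Expected counts were summed per gene, rounded for tests, and tested with edgeR 4.0.16 in R 4.3.3 (filterByExpr, TMM, robust quasi-likelihood fit, Benjamini-Hochberg over all genes tested, call at an adjusted p under 0.05); the SE was taken as the log2 fold change over the root of F. DESeq2 1.42.0, RLE size factors, no filter, a replicate block and left-out libraries were alternatives. The fit was tested on simulated counts. Members, lists and tests were chosen with earlier results of these data known. The genes named are the members, up to 4 genes of each list with the highest mean level in exosomes, genes counted as called, all keratin pseudogenes as a sum with the 3 of highest mean, and the 8 genes most like the members' sum (Pearson r of log2 RPM + 1, libraries of at least 100000 named reads, mean of at least 2); S100A7, CASP14, SPRR2D, LYPD3, TP63 and DSG2 were named after their values were seen. Replicates differed by more than sampling noise (chi-square per degree of freedom of at least 10.0 in every pair without HD exosome 4), so each counted once. P-values measure the spread between these libraries.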

Additional observations from a re-analysis of the deposited data

Results flagged for a closer look

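In HD exosomes, 1 library stood far from the other 4 for 3 genes. KRT1 was highest in replicate 4, at 1403 RPM, from 1 read, with the next library at 319. KRT5 was highest in replicate 5, at 341, with the next at 90.7. KRT10 was highest in replicate 5, at 44.4, with the next at 1.61.

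In HD granules, KRT10 stood apart in replicate 1 at 5.82 RPM (next 2.24), KRT14 in replicate 4 at 0.788 from 18.8 estimated reads (next 0.226), and KRT17 in replicate 3 at 6.29 (next 1.69). Of 44 groups of 5 libraries examined, 6 had such a value. The limit used marks about 1 in 20 groups of independent, normally distributed values. These levels hold zeros and share libraries, so the 6 cannot be set against that rate.

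An entry without a gene symbol, 1655 nucleotides long and outside the gene tests, had 290 RPM in HD exosome 5, where the highest control exosome library had 19.95 and all granule libraries had 0.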

How the results depend on the processing

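Between HD and control exosomes, the count of called genes, 0, became 3 with DESeq2, 275 with no filter on low counts and 296 with a replicate block, and 0 to 487 when 1 library was left out, 487 being without HD exosome 1. The count of called members, 0, became 1 with no filter (KRT17), 3 with the block (PKP1, DSG1 and KRT6A) and 0 to 3 when 1 library was left out. Between HD and control granules 0 became 19 with DESeq2 and 0 to 1 with 1 library left out, and KRT17 lay between -0.33, without HD granule 3, and 1.10 with 1 library left out. Between exosomes and granules of HD cells the share of tested genes called, 17.3%, became 11.4% with no filter (of more genes tested), 28.7% with the block, 35.0% without HD exosomes 2 and 4 and HD granule 3, and 8.95% to 38.9% with 1 library left out: 38.9% without HD granule 3, and 10.8%, 8.95%, 9.77% and 8.97% without HD granules 1, 2, 4 and 5. In control cells the count of 9227 calls lay between 8624 and 11135 under all alternatives. Replicate numbers did not pair all libraries: correlations of same-numbered libraries between HD and control exosomes lay between -0.0871 and 0.346. Of the 10 libraries 4, those of replicates 1 and 5, correlated best with their own number. Between HD and control granules replicate 5 did so on both sides, with a correlation of 0.430. Whether same-numbered libraries were handled together was not tested.

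As deposited TPM, the mean sum of the members was 110 in HD exosomes, or 83.9 without replicate 4. It was 7.46 in control exosomes, 1.33 in HD granules and 0.508 in control granules. Per 1000000 of all reads the mean sum was 438 in HD exosomes with replicate 4 included, 35.3 in control exosomes, 4.28 in HD granules and 1.91 in control granules. In HD exosomes the 690 RPM became 512 without replicate 4 and 263 without replicates 4 and 5, that last setting chosen after the data were seen.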
